A study of Mus musculus with 20 samples.

Results

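The kidneys of 5 mice injected with engineered immune complexes (EIC) were compared with those of 5 Control mice, 10 of the 20 libraries of the series. All libraries that the labels give to these 2 groups were used, and none was left out. The series holds RNA sequencing of whole kidney from NCr nude mice, with a further 10 mice given EIC and sparsentan that enter here only as an alternative fit. All mice were females, bought at 7 weeks of age and homozygous for the nude mutation. Every group thus lacks a thymus and most mature T cells. EIC were formed in vitro from a human polymeric IgA1 deficient in galactose (Gd-IgA1) and a recombinant human IgG autoantibody against it (rIgG). EIC mice received 6 injections into the tail vein, every other day, and a dose held 0.2 mg of Gd-IgA1 with 0.1 mg of rIgG. Control mice received no EIC, and the study's scheme gives PBS in its place. Both groups were gavaged with the same vehicle for 11 days and killed on day 12, at an hour not given in the sources used here. Each library is of a single mouse, named here by its group and its number in the labels. The model carries human proteins into a mouse, which has no IgA1 of its own and no receptor CD89 for it.

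In IgA nephropathy, complexes of IgA1 and IgG lodge in the glomerular mesangium, where complement, Fc receptors and macrophages are known to take part in the injury. Macrophages of the kidney clear complexes through Fc receptors and make the C1q chains. The kidney also runs a circadian clock, in which Arntl and Clock proteins switch on Per, Cry and the outputs Dbp and Tef, and Per and Cry proteins then hold them back. Tubule cells fill most of the organ and burn fatty acids in mitochondria and peroxisomes.

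The libraries held 12662345 to 38651781 counts in Control and 17403376 to 19635495 in EIC mice. A gene entered the test when 5 or more of the 10 libraries gave it 10 or more counts, which left 13626 genes. LFC is the log2 fold change of EIC over Control, CPM is the count of a gene relative to all counts of its library, per 1000000, after TMM scaling, and a gene is called where edgeR's quasi-likelihood test, two-sided, gave a Benjamini-Hochberg adjusted p under 0.05. SEs come from limma-trend, and values after ± are SDs over 5 mice. By its own methods the study did not control for cage, and the p values measure only the spread between these mice. Kidney markers were high in each of the 10 libraries. Slc34a1, the phosphate carrier of the proximal tubule, ranged over 3712 to 6482 CPM and Umod, made by the thick ascending limb, over 2589 to 5912 CPM.

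Some libraries stood apart. Control 653 carried Fabp4 of fat cells at 233 CPM against at most 51.6 in the other Control mice, and Vcan, a matrix proteoglycan, at 43.2 against at most 0.481. Control 651 carried Havcr1, the tubular injury marker KIM-1, at 45.3 CPM, while the other 9 mice lay between 0.882 and 1.69. EIC 67 had the highest level in 23 of 27 macrophage markers and in 14 of 15 interferon-inducible GTPases. Few markers of neighbouring tissue passed the filter, 2 of 8 of fat, 2 of 10 of adrenal gland, 1 of 7 of skeletal muscle and 2 of 7 of urothelium, and none was called. Globin genes took 0.0468% ± 0.0113 of counts in Control and 0.0844% ± 0.0289 in EIC mice (exact permutation test, two-sided, p = 0.0317, n = 5 and 5). Mitochondrial genes took 10.4% ± 0.788 and 11.6% ± 1.73 (exact permutation test, p = 0.190). The share of ribosomal protein genes (exact permutation test, p = 0.206), the share of the 10 most abundant genes (p = 0.222) and the total count (p = 0.444) also missed 0.05. The number of listed genes at 0 (exact permutation test, p = 0.683) cannot compare detection between the groups. Every listed gene has a count in EIC 65, which fixes the value of that mouse at 0.

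Long and short transcripts differed between the libraries. Genes were ordered by exon length and split into 10 bins of equal size. The log2 level of the bin of longest genes relative to that of shortest genes was 0.292, -0.0211, 0.111, 0.0362 and 0.0134 in the Control mice 651 to 655. It was -0.0285, -0.0227, -0.126, -0.243 and -0.0688 in EIC 65 to 69, below each Control mouse. Genes called lower in EIC had a median exon length of 6452 bases and those called higher one of 2958 bases, against 4426 over all tested genes. Across 13309 genes with a known length the LFC had a Spearman correlation of -0.28 with length, a description over genes that share the same 10 libraries. Removing this trend from each library is an alternative chosen after the data were seen.

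**Figure D1:**
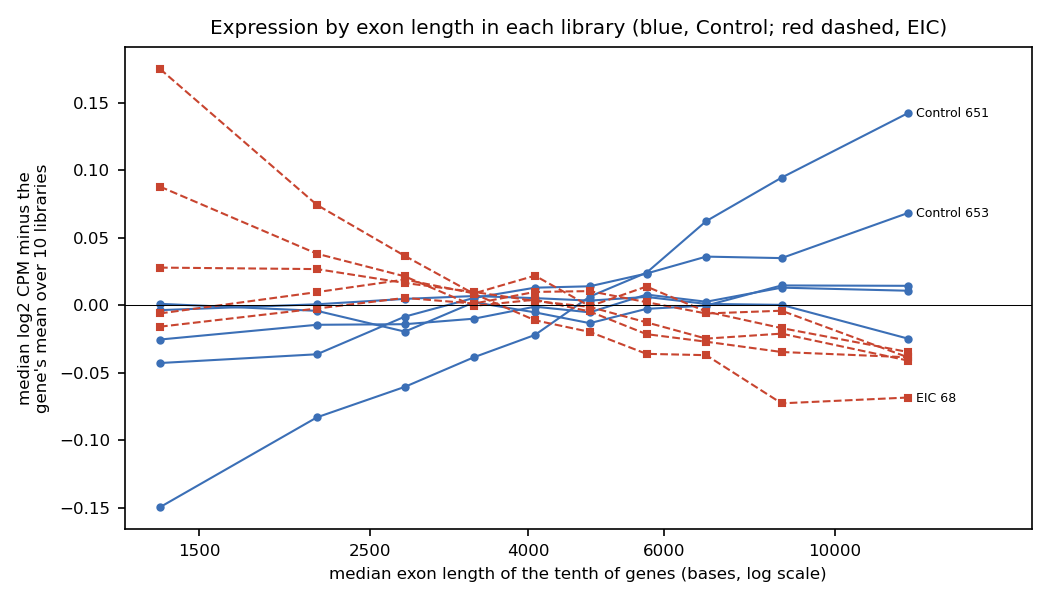
Median log2 CPM minus each gene's mean over the 10 libraries (y axis) in 10 bins of the tested genes ordered by exon length in bases (x axis, log scale), 1 line per library, Control in blue and EIC in red dashes. In the bin of longest genes Control 651 is highest at 0.142 and EIC 68 lowest at -0.0683, and in the bin of shortest genes their order is turned.

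Of the 13626 genes, 143 were called, 1.05%, with 74 higher in EIC mice (0.543%) and 69 lower (0.506%). At an unadjusted p under 0.05 there were 1991 genes, and 48.2% of all tested genes had a positive LFC. The LFCs of called genes ran from -3.11 to 2.41, with a median of 0.69 for those called higher and -0.51 for those called lower, and 32 of the 143 changed by more than 1. For 139 of them the EIC and Control mice did not overlap, as was so for 557 of all tested genes (4.09%). DESeq2, which the study used, called 505 genes, all 143 among them. With the length trend removed 130 were called, 111 of them shared with the 143 (63 of the 74 higher, 48 of the 69 lower). Among the 90 called genes named in the text, 17 lost their calls with the length trend removed (Bdnf, Bnip3, C1qa, C1qc, Celsr2, Clock, Cpt2, Fcgrt, Fmn1, Gpd2, Grem1, Mcmdc2, Nat8f7, Pappa, Ptprk, Pxmp4 and Wnt5b), at adjusted p of 0.0527 to 0.146. Without a scaling factor 78 were called higher and 195 lower, and the median LFC of all genes moved from -0.0068 to -0.067. Leaving out 1 library lowered the count by over 1.5 times in 6 of 10 cases, with 88 called without Control 651, 79 without Control 652, 71 without Control 654, 78 without Control 655, 79 without EIC 68 and 71 without EIC 69.

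**Figure D2:**
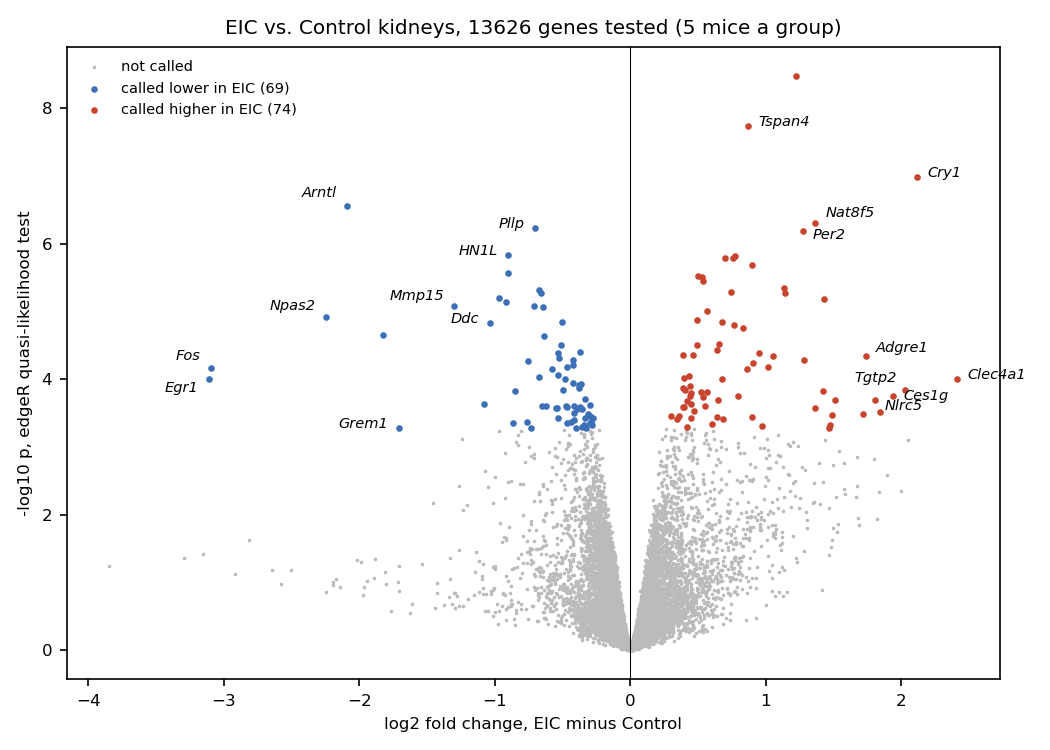
LFC of EIC over Control (x axis) against -log10 of the unadjusted p of edgeR's quasi-likelihood test (y axis) for 13626 genes, with 74 called higher in red, 69 called lower in blue and the others in grey. The clock genes Cry1, Arntl and Per2 are among the highest points, and Fos and Egr1 lie farthest left among called genes.

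Cry1, Arntl, Per2 and Wee1, all genes of the circadian clock, were among those with the smallest p values. Whether EIC and Control mice were killed at the same hour, or in a mixed order, is unknown. The part of the hour and order of killing in the levels of clock genes was not tested. Of 6 genes listed as clock activators, Nfil3 included although it represses D-box genes, 3 were called lower and 1 higher, and of 15 repressors and outputs 7 were called higher and none lower, with a median LFC of 0.63 over the 15 against -0.01 over all tested genes. EIC and Control mice did not overlap in 9 of these 15, all higher in EIC. Of all tested genes, 2.13% were higher without overlap, 0.543% were called higher and 0.506% were called lower. Cry1, a repressor of the loop, read 1.65, 2.51, 3.74, 3.02 and 2.74 CPM in Control and 13.9, 10.8, 9.26, 11.4 and 12.7 in EIC mice (LFC 2.11, SE 0.19, adjusted p = 4.69e-04). Per2, the partner of the Cry proteins, stood at 16.4, 18.2, 17.9, 17.8 and 11.4 CPM in Control and 47.5, 40.1, 30.8, 41.04 and 38.6 in EIC mice (LFC 1.27, SE 0.14, adjusted p = 0.00126). The groups were separate for both genes, with Control 655 the lowest for Per2.

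Arntl, which encodes BMAL1, and its partners moved the other way. Arntl read 3.38, 2.48, 3.42, 2.27 and 2.98 CPM in Control and 0.645, 0.764, 0.579, 0.597 and 0.802 CPM in EIC mice (LFC -2.09, SE 0.19, adjusted p = 9.24e-04). Npas2, which can stand in for Clock, read 1.98, 1.36, 1.71, 1.86 and 2.12 CPM and 0.745, 0.294, 0.232, 0.299 and 0.267 CPM (LFC -2.24, SE 0.28, adjusted p = 0.00554). EIC 65 was the highest EIC mouse for Npas2 and still below the Control mice. Clock itself fell less, from 55.8 ± 3.56 to 41.8 ± 5.16 CPM (LFC -0.42, SE 0.084, adjusted p = 0.0343), and lost its call without Control 651, 652, 654 and 655 or EIC 65, 67, 68 and 69 (adjusted p 0.0594 to 0.0863). With the length trend removed its LFC was -0.32 (adjusted p = 0.0824). Rora, a nuclear receptor of the clock, had an LFC of 0.25 (adjusted p = 0.344), and Nfil3 one of 0.53 (adjusted p = 0.350).

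Among the other repressors and outputs, Cry2 rose from 27.00 ± 3.03 to 40.01 ± 2.16 CPM (LFC 0.56, SE 0.081, adjusted p = 0.00469) and Per3 from 15.9 ± 0.988 to 24.6 ± 5.62 CPM (LFC 0.64, SE 0.13, adjusted p = 0.0417). Dbp, which activates D-box genes, read 135, 182, 147, 188 and 164 CPM in Control and 245, 255, 270.1, 299.7 and 236 in EIC mice (LFC 0.68, SE 0.10, adjusted p = 0.00600), and its relative Tef rose by 0.43 (SE 0.072, adjusted p = 0.0199). Wee1, a clock output whose kinase delays mitosis, rose from 24.3 ± 2.62 to 41.7 ± 4.35 CPM (LFC 0.77, SE 0.094, adjusted p = 0.00200). Cry1, Per2, Arntl, Npas2, Cry2, Dbp and Wee1 kept their calls in each of the 10 fits that left out 1 library. Tef lost its call without Control 654 or 655 (adjusted p 0.0515 to 0.0548), and Per3 lost its call without Control 651, 652, 654 and 655 or EIC 66 and 68 (adjusted p 0.0634 to 0.102). Nr1d2 and Usp2 did not overlap between the groups but missed the threshold, with LFCs of 0.26 (adjusted p = 0.0504) and 0.63 (adjusted p = 0.0666). Per1 had an LFC of 0.86 (adjusted p = 0.199), Ciart one of 1.11 (adjusted p = 0.0721), and Nr1d1, a repressor of Arntl, one of -0.44 (adjusted p = 0.172).

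Promoters of called genes are shown because clock factors are known to read short motifs there. The sequences are the 250 bases before the start in RefSeq on GRCm38.p6, with the motif in capitals, 5′ to 3′ on the gene's strand. The E-box CACGTG, read by Arntl with Clock, begins at -60 from the start in Cry1 (chr10:85185055-85185304, minus strand). The D-box TTANGTAA, read by Dbp and Tef, stands 2 times in Per3 (chr4:151044666-151044915, minus strand) and once in Ak4 (chr4:101419039-101419288, plus strand), a mitochondrial adenylate kinase.
Cry1 promoter: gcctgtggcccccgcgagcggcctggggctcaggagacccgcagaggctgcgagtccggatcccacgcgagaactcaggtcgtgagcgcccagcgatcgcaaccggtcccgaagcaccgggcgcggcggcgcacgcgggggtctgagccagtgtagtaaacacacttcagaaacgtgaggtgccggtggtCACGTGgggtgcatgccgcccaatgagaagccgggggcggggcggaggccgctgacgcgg
Tef promoter, 1 of 2 with an E-box (chr15:81811164-81811413, plus strand): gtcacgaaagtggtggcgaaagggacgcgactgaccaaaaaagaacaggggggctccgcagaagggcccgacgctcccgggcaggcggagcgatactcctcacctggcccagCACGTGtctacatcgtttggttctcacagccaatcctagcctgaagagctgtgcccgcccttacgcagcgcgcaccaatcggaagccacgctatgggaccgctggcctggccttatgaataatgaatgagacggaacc
Per3 promoter: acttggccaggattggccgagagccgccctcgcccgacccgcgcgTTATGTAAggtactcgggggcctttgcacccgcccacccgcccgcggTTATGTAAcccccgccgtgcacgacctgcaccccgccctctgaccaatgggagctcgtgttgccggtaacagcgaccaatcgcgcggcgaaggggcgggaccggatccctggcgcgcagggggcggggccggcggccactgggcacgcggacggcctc
Ak4 promoter: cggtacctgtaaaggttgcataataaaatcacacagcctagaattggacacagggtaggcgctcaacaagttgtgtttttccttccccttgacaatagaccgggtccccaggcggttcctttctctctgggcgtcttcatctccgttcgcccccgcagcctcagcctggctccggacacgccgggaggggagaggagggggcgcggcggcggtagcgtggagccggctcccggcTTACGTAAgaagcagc
Promoters were found for 10498 tested genes, 57 of them called higher and 50 called lower. Searched on both strands, the E-box was in 9.76% of all promoters, in 8 of 57 genes called higher (Ak4, Bnip3, Cry1, Nkain1, Polr3gl, Sypl2, Tef, Tspan4) and in 2 of 50 called lower. The D-box was in 1.71% of all promoters, in 5 of 57 genes called higher (Ak4, Ces1g, Per3, Prnp, Wnt5b) and in 1 of 50 called lower. A gene with several promoters counts once where any holds the motif. The counts describe letters in a window and show no binding.

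Immediate early genes are those that cells switch on within minutes of a stimulus. They gave 4 calls among 22 tested, all lower in EIC mice (0.506% of all tested genes were called lower). Their median LFC was -0.40, and 17 LFCs were negative, where 48.2% of all tested genes had a positive one. The part of the hour and order of killing in these levels was not tested either. Fos, a subunit of the AP-1 transcription factor, read 18.6, 15.5, 10.3, 11.5 and 27.5 CPM in Control and 4.12, 1.65, 0.521, 1.02 and 2.25 CPM in EIC mice (LFC -3.10, SE 0.44, adjusted p = 0.0163). Egr1, a zinc finger transcription factor, read 65.95, 40.4, 23.3, 53.1 and 119 CPM in Control and 10.1, 8.05, 3.47, 4.78 and 8.13 CPM in EIC mice (LFC -3.11, SE 0.39, adjusted p = 0.0203). No EIC mouse reached the lowest Control mouse for either gene, although Control mice themselves differed several fold for Egr1. Junb, another AP-1 subunit, read 33.3, 25.5, 29.99, 29.8 and 53.04 CPM in Control, where mouse 655 was far above the others, and 16.03, 11.9, 20.03, 15.1 and 17.5 in EIC mice (LFC -1.08, SE 0.19, adjusted p = 0.0343). Btg2, which restrains cell division, fell from 29.6 ± 6.18 to 17.3 ± 3.20 CPM (LFC -0.77, SE 0.16, adjusted p = 0.0458).

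Other members were not called. Jun had an LFC of -0.997 (adjusted p = 0.103), Ier2 one of -0.62 without overlap (adjusted p = 0.122), and Nr4a1 one of -1.23 (adjusted p = 0.171). Fos lost its call without EIC 69 (adjusted p = 0.0557). Egr1 lost its call without EIC 68 or 69 (adjusted p 0.0595 to 0.0651). Junb lost its call without Control 651 and 654 or EIC 65, 68 and 69 (adjusted p 0.0622 to 0.0892), and Btg2 lost its call without Control 652, 653, 654 and 655 or EIC 66, 67, 68 and 69 (adjusted p 0.0577 to 0.117). With the length trend removed 4 members were called, all lower. Without both Control 651 and EIC 68, the mice of the steepest length trend, none of the 21 members tested was called. Of 10 glucocorticoid-induced genes, 1 was called, higher in EIC mice (0.543% of all tested genes were called higher). Mt1, a metallothionein that binds zinc and copper, read 92.3, 85.4, 88.4, 79.9 and 81.5 CPM in Control and 127, 134, 168, 196 and 173 in EIC mice (LFC 0.90, SE 0.11, adjusted p = 0.00229), with no overlap, and it kept its call in each of the 10 fits that left out 1 library. Mt2 had an LFC of 0.96 (adjusted p = 0.0649), Fkbp5 one of 0.84 (adjusted p = 0.0700) and Tsc22d3 one of 1.12 (adjusted p = 0.223), while Sgk1 stood at 0.31 (adjusted p = 0.810) and Ddit4 at 0.015 (adjusted p = 0.993).

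**Figure D3:**
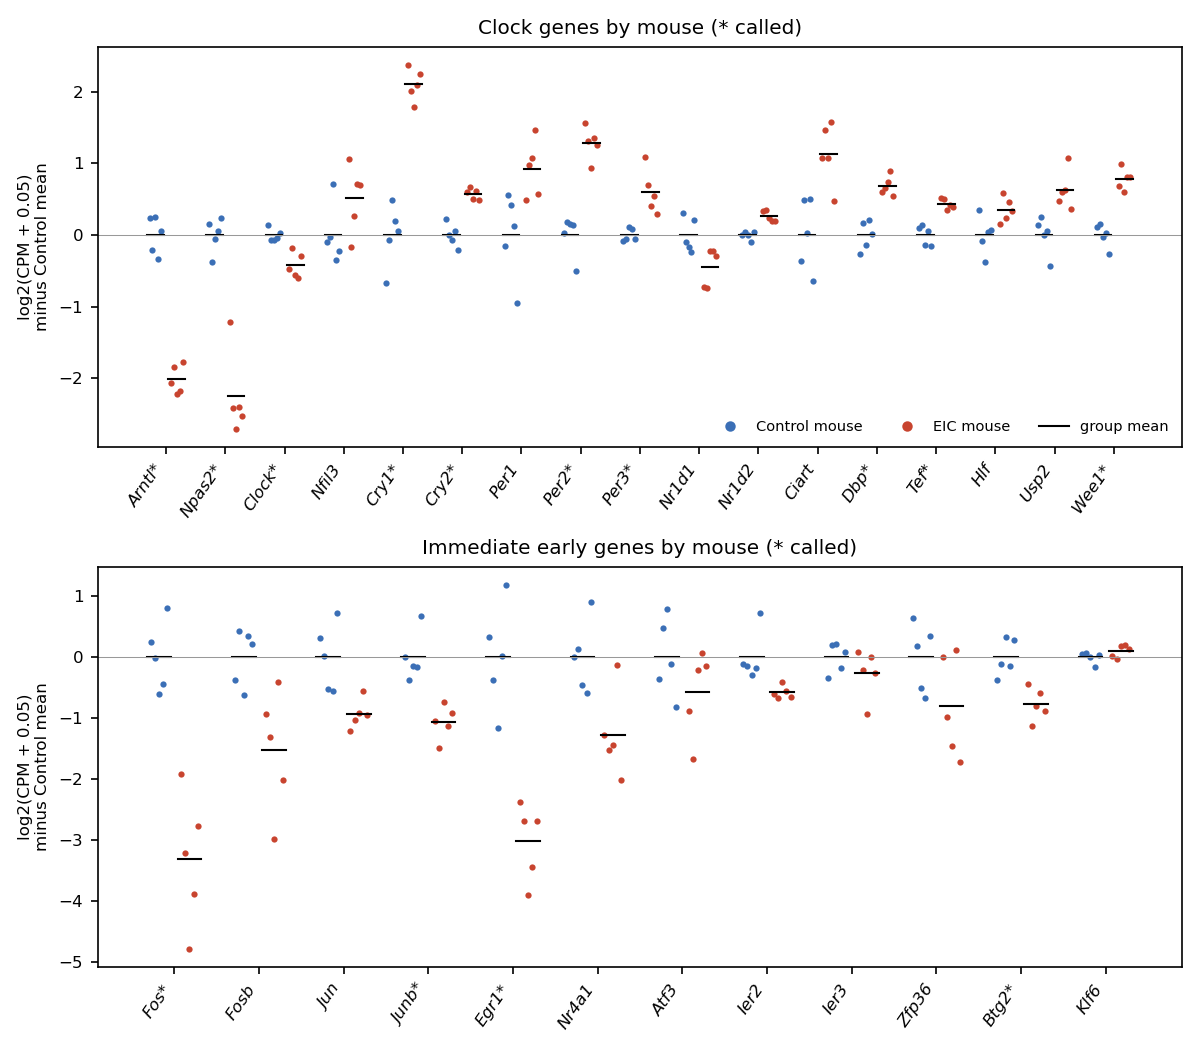
Log2(CPM + 0.05) minus the Control mean (y axis) of 17 clock genes (top) and 12 immediate early genes (bottom), 1 point per mouse, Control in blue and EIC in red, with bars at group means and stars at called genes. Arntl and Npas2 lie below, and Cry1 and Per2 above, every Control mouse, and Fos and Egr1 lie lowest in the lower panel.

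Macrophage genes gave 3 calls, all higher in EIC mice (0.543% of all tested genes were called higher). None of the 27 macrophage and monocyte markers tested was called lower, and the median LFC was 1.01. All 27 had a positive LFC (48.2% of all tested genes did), and 11 were higher without overlap (2.13% of all tested genes). Weakly expressed markers could pass the filter on counts through the EIC mice alone. The number of positive LFCs may thus be set in part by that filter. In RNA of whole kidney, more cells of a type and more RNA per cell cannot be told apart. Adgre1, which encodes F4/80, read 1.93, 2.15, 1.52, 2.34 and 1.65 CPM in Control and 4.12, 5.996, 12.04, 4.66 and 5.40 CPM in EIC mice (LFC 1.74, SE 0.26, adjusted p = 0.0128). Clec4a1, a myeloid C-type lectin, read 0.248, 0.256, 0.0634, 0.275 and 0.157 CPM in Control and 1.09, 0.941, 2.20, 0.538 and 1.02 in EIC mice (LFC 2.41, SE 0.38, adjusted p = 0.0203). Clec4a2, a lectin of the same family, rose from 0.323 ± 0.0780 to 1.11 ± 0.529 CPM (LFC 1.72, SE 0.30, adjusted p = 0.0392). EIC 67 was the highest mouse for all 3 genes, and the other 4 EIC mice also lay above every Control mouse. Both Clec4a genes averaged about 1 CPM or less in each group, so that few reads carry their values.

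Members that missed the threshold included Lyz2, the lysozyme of macrophages, at 7.29, 10.5, 7.61, 7.56 and 9.40 CPM in Control and 12.5, 15.9, 71.1, 23.1 and 35.1 in EIC mice (LFC 1.89, SE 0.38, adjusted p = 0.0985). Ms4a6b had an LFC of 1.67 (adjusted p = 0.0731), Mpeg1, a pore-forming protein, one of 1.27 (adjusted p = 0.0857), Laptm5 one of 1.11 (adjusted p = 0.0716) and Aif1 one of 1.66 (adjusted p = 0.140). Adgre1 kept its call in each of the 10 fits that left out 1 library. Clec4a1 lost its call without Control 655 (adjusted p = 0.0548), and it did not pass the filter on counts without Control 652 or without EIC 65, 66, 67 or 69. Clec4a2 lost its call without Control 651, 652, 653, 654 and 655 or EIC 67, 68 and 69 (adjusted p 0.0532 to 0.0913). Without EIC 67, 25 of the markers passed the filter, with a median LFC of 0.67 and 1 call. On all 10 libraries DESeq2 called 15 of the 27, all higher, where it called 290 of all 13626 tested genes higher. The counts of markers of other leukocytes were too low to judge. Only 3 of 13 neutrophil markers, 6 of 22 T, NK and B cell markers and 6 of 15 dendritic and mast cell markers passed the filter, and none was called. The globin share was also higher in EIC mice, with all 5 tested red cell genes at an LFC of 0.86 to 1.09 and none called by edgeR, although all 5 stood at an unadjusted p under 0.05 and DESeq2 called 4 of them higher. Its part in the macrophage result was not tested.

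C1q, the recognition unit that starts the classical complement pathway, was called higher for all 3 chains (0.543% of all tested genes were called higher). C1qa read 5.97, 7.84, 6.21, 10.04 and 7.29 CPM in Control and 13.3, 12.6, 35.5, 16.5 and 24.5 in EIC mice (LFC 1.46, SE 0.26, adjusted p = 0.0498), C1qb rose from 5.15 ± 1.52 to 14.4 ± 6.33 CPM (LFC 1.49, SE 0.27, adjusted p = 0.0401), and C1qc rose from 3.98 ± 0.572 to 11.1 ± 5.83 CPM (LFC 1.47, SE 0.28, adjusted p = 0.0481). The 3 genes lie side by side on chromosome 4, C1qa at chr4:136895917-136898803, C1qc at chr4:136889804-136893065 and C1qb at chr4:136880129-136886187 (GRCm38). In all 3, EIC 67 was highest and EIC 69 second. C1qa lost its call without Control 651, 652, 653, 654 and 655 or EIC 68 and 69 (adjusted p 0.0738 to 0.115). C1qb lost its call without Control 651, 652, 653 and 655 or EIC 68 and 69 (adjusted p 0.0730 to 0.0997). C1qc lost its call without Control 651, 652, 653, 654 and 655 or EIC 66, 68 and 69 (adjusted p 0.0510 to 0.115). With the length trend removed only C1qb stayed called (adjusted p = 0.0481), with C1qa at 0.0554 and C1qc at 0.0577. No other of the 20 complement genes tested was called, and their median LFC was 0.14. C3, the central component, had an LFC of 0.51 (adjusted p = 0.532), Cfb of the alternative pathway one of 0.17 (adjusted p = 0.536) and C3ar1, a receptor on myeloid cells, one of 1.07 (adjusted p = 0.218). Without EIC 67 the LFC of C3 was 0.16 and that of C3ar1 0.58.

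Fc receptors, which bind the constant part of IgG, gave 1 call among 14 genes, higher in EIC mice (0.543% of all tested genes were called higher). Fcgrt, the neonatal receptor that spares IgG and albumin from breakdown and is made by podocytes and proximal tubule cells, read 226, 189, 148, 214 and 289 CPM in Control and 340.2, 361, 321, 362 and 333 in EIC mice (LFC 0.69, SE 0.14, adjusted p = 0.0420). Its rise was even over the EIC mice, and EIC 67 was the lowest of them. It lost its call without Control 651, 652 and 654 or EIC 65, 66, 67, 68 and 69 (adjusted p 0.0662 to 0.103). Fcer1g, the signalling chain, had an LFC of 1.18 without overlap and missed the threshold (adjusted p = 0.0645). The activating receptors Fcgr4 (LFC 2.0003, adjusted p = 0.127), Fcgr1 (LFC 1.59, adjusted p = 0.133) and Fcgr3 (LFC 0.89, adjusted p = 0.182) were not called, nor was the inhibitory Fcgr2b (LFC -0.37, adjusted p = 0.121). None of 16 leukocyte integrin and actin genes was called although their median LFC was 1.05, and it was 0.61 without EIC 67. Itgb2, the common chain of leukocyte integrins, read 3.11, 1.87, 1.39, 3.64 and 1.88 CPM in Control and 3.33, 4.82, 11.1, 3.88 and 4.12 in EIC mice (LFC 1.19, SE 0.34, adjusted p = 0.162), with EIC 67 far above the rest. Myo1g, a myosin of blood cells, had an LFC of 1.82 (adjusted p = 0.188).

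Interferon-inducible GTPases, which attack vacuoles of intracellular microbes, had the highest median LFC of the lists with at least 5 tested members, 1.16 over 15 genes. All 15 LFCs were positive (48.2% of all tested genes). Of the 15, 5 were higher without overlap (2.13% of all tested genes) and 2 were called higher (0.543%). As with the macrophage markers, weakly expressed members could pass the filter on counts through the EIC mice alone. Tgtp2 read 1.95, 1.51, 2.35, 1.51 and 2.04 CPM in Control and 4.82, 3.47, 15.1, 6.03 and 8.50 CPM in EIC mice (LFC 2.03, SE 0.33, adjusted p = 0.0259). Gbp4, a guanylate-binding protein, read 1.62, 1.82, 2.09, 2.06 and 1.65 CPM in Control and 6.11, 2.70, 7.52, 3.17 and 4.12 in EIC mice (LFC 1.36, SE 0.26, adjusted p = 0.0343). Iigp1 stood at 2.72, 2.97, 2.54, 4.26 and 3.53 CPM in Control and 8.09, 6.11, 28.8, 7.47 and 14.97 in EIC mice and missed the threshold (LFC 2.05, SE 0.36, adjusted p = 0.0586). In all 3 genes EIC 67 was highest, and no EIC mouse fell among the Control mice. Tgtp2 and Tgtp1 are near-identical, so reads can be shared or lost between them and both values are uncertain. Tgtp1 had an LFC of 1.80 (adjusted p = 0.0742), Irgm2 one of 1.16 (adjusted p = 0.0965) and Gm4951 one of 1.84 (adjusted p = 0.127). Without EIC 67 the median of the list was 0.83 with 2 calls. On all 10 libraries DESeq2 called 11 of the 15, all higher (290 of all 13626 tested genes). Tgtp2 lost its call without Control 651, 652, 654 and 655 or EIC 69 (adjusted p 0.0662 to 0.0757), and Gbp4 lost its call without Control 651, 652, 654 and 655 or EIC 65, 67 and 69 (adjusted p 0.0575 to 0.0897).

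The promoter of Tgtp2 (chr11:49064213-49064462, minus strand) is shown because it held 2 motifs known from interferon-induced promoters. A GAS element (TTCNNNGAA) and an ISRE core (GAAANNGAAA), read by IRF factors, stand next to each other, in capitals.
Tgtp2 promoter: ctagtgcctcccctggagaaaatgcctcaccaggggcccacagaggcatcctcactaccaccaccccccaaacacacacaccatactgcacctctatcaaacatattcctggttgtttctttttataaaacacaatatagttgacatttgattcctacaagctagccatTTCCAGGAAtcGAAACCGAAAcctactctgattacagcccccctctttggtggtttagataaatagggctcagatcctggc
The ISRE core was in 3.19% of all promoters, in 2 of 57 genes called higher (Extl1 and Tgtp2) and in 3 of 50 called lower. The GAS letters were in 7.33% of all promoters, in 8 of 57 called higher and 4 of 50 called lower.

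Genes of antigen presentation and the type I interferon genes gave 1 call, higher in EIC mice (0.543% of all tested genes were called higher). Nlrc5, the activator of MHC class I genes, read 0.578, 0.487, 0.507, 0.619 and 0.0783 CPM in Control and 1.94, 1.29, 2.37, 1.31 and 1.39 in EIC mice (LFC 1.80, SE 0.38, adjusted p = 0.0311). All 5 EIC mice lay above every Control mouse, and Control 655 was far below the others, at a level that very few reads carry. Nlrc5 lost its call without Control 651, 652 and 654 or EIC 65, 67, 68 and 69 (adjusted p 0.0530 to 0.0736). The other 18 MHC class I genes were not called, among them Tap1, a peptide transporter (LFC 1.01, adjusted p = 0.107), Psmb9 of the immunoproteasome (LFC 1.20, adjusted p = 0.110) and B2m (LFC 0.53, adjusted p = 0.182). None of 8 MHC class II genes was called, with a median LFC of 0.84, and Cd74, the invariant chain, stood at 0.89 (adjusted p = 0.183). None of 34 type I interferon-stimulated genes was called by edgeR or free of overlap, with a median of 0.56. Of the 34, 16 stood at an unadjusted p under 0.05. DESeq2 called 3 of the 34 higher (290 of all 13626 tested genes). The fit of all 20 libraries called 2 higher (225 of 13990) and edgeR without EIC 66 called 4 higher (97 of 13592). Without EIC 67 the median was 0.35. Isg15 had an LFC of 0.97 (adjusted p = 0.219), and EIC 66 lay below the Control mean for that list. None of 26 cytokine, chemokine and NF-kappaB genes was called (median 0.18), and none of 18 lysosomal genes (median 0.10). Pld4, a phospholipase D family member of myeloid cells, was called outside the lists and rose from 2.17 ± 0.0901 to 5.83 ± 2.65 CPM (LFC 1.42, SE 0.25, adjusted p = 0.0259). Pld4 lost its call without Control 651, 652, 654 and 655 or EIC 69 (adjusted p 0.0643 to 0.0746).

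**Figure D4:**
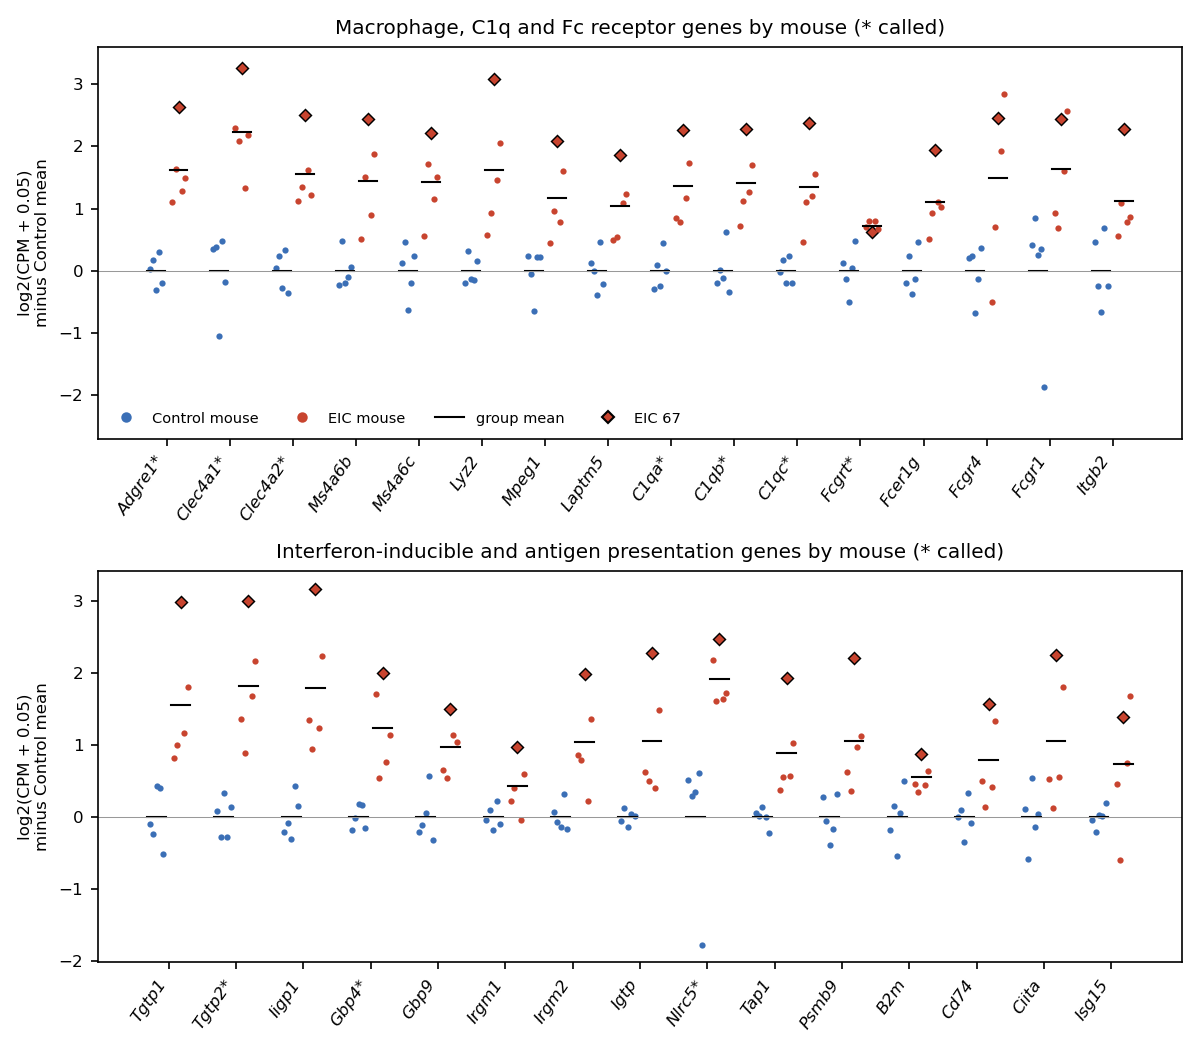
Log2(CPM + 0.05) minus the Control mean (y axis) for 16 macrophage, C1q and Fc receptor genes (top) and 15 interferon-inducible and antigen presentation genes (bottom), 1 point per mouse, with EIC 67 as a diamond, bars at group means and stars at called genes. EIC 67 is highest in most genes but not in Fcgrt, where the 5 EIC mice lie close together.

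Fatty acid oxidation gave 3 calls among 19 genes, all higher (0.543% of all tested genes were called higher), with a median LFC of 0.36. Slc25a20, the carrier that takes acylcarnitines into mitochondria, read 58.9, 53.95, 57.8, 45.6 and 56.3 CPM in Control and 98.3, 101, 75.1, 93.7 and 92.2 in EIC mice (LFC 0.76, SE 0.092, adjusted p = 0.00200). Acaa1b, the thiolase that ends each turn of oxidation in peroxisomes, read 256, 228, 188, 247 and 243 CPM in Control and 432, 437, 301, 429 and 378 in EIC mice (LFC 0.77, SE 0.11, adjusted p = 0.00631). Cpt2, which hands the acyl group back to coenzyme A inside mitochondria, rose from 126 ± 12.1 to 168 ± 18.8 CPM (LFC 0.42, SE 0.089, adjusted p = 0.0497). Slc25a20 and Acaa1b kept their calls in each fit that left out 1 library, and Cpt2 lost its call without Control 651, 652, 653, 654 and 655 or EIC 65, 66, 68 and 69 (adjusted p 0.0557 to 0.125). Cpt1a, which loads fatty acids onto carnitine, had an LFC of 0.36 (adjusted p = 0.172) and Ppara itself one of 0.54 (adjusted p = 0.235).

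Called genes of mitochondria went both ways, and Ethe1 and Car5b, given below, were among those called lower. Further called genes of mitochondria and peroxisomes, chosen here after their values were seen, were higher (0.543% of all tested genes were called higher). They were Eci2, an isomerase for unsaturated fatty acids (LFC 0.41, SE 0.075, adjusted p = 0.0259), Pxmp4 of the peroxisomal membrane (LFC 0.45, SE 0.094, adjusted p = 0.0420) and Nudt19, a peroxisomal hydrolase of coenzyme A (LFC 0.65, SE 0.12, adjusted p = 0.0311). Slc25a42, which brings coenzyme A into mitochondria, rose from 69.9 ± 10.3 to 112 ± 17.2 CPM (LFC 0.68, SE 0.12, adjusted p = 0.0203). Ak4 rose from 682 ± 69.2 to 945 ± 95.2 CPM (LFC 0.47, SE 0.095, adjusted p = 0.0367). Bnip3, a mitophagy receptor that is also a hypoxia target, rose from 192 ± 19.8 to 259.5 ± 19.8 CPM (LFC 0.44, SE 0.081, adjusted p = 0.0287), the 1 call among 18 hypoxia and glycolysis genes. Bnip3 lost its call without Control 654 and 655 or EIC 65, 68 and 69 (adjusted p 0.0548 to 0.0812). None of 34 oxidative phosphorylation genes was called, although 32 had a positive LFC (48.2% of all tested genes did). Their median was 0.11, and 0.06 with the length trend removed. With 1 library left out, calls were lost for Slc25a42 in 2 of 10 fits (adjusted p up to 0.0609), Nudt19 in 5 of 10 fits (adjusted p up to 0.0817), Ak4 in 5 of 10 fits (adjusted p up to 0.0981), Eci2 in 6 of 10 fits (adjusted p up to 0.0738) and Pxmp4 in 7 of 10 fits (adjusted p up to 0.109).

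Enzymes that conjugate and detoxify gave 4 calls among 31 genes, all higher (Nat8f5, Nat8, Ces1d and Ces1g), and 8 were higher without overlap. Of all tested genes, 0.543% were called higher and 2.13% were higher without overlap. The Nat8 family encodes acetyltransferases of the endoplasmic reticulum, and its members lie in 1 cluster on chromosome 6. Nat8f5 at chr6:85817218-85820972 read 19.9, 23.8, 17.6, 12.7 and 17.00 CPM in Control and 44.4, 49.6, 41.04, 47.8 and 54.01 in EIC mice (LFC 1.36, SE 0.14, adjusted p = 0.00126). Nat8, which makes mercapturic acids, read 95.3, 90.97, 63.98, 76.7 and 78.9 CPM in Control and 139.7, 164, 112, 161 and 146 in EIC mice (LFC 0.83, SE 0.12, adjusted p = 0.00690). Outside the list, the family members Nat8f6 (LFC 0.74, adjusted p = 0.00346) and Nat8f7 (LFC 0.60, adjusted p = 0.0468) were called too. Nat8f1 (LFC 0.37, adjusted p = 0.0910), Nat8f2 (LFC 0.81, adjusted p = 0.0704) and Nat8f3 (LFC 0.29, adjusted p = 0.209) were not. The paralogs are alike in sequence, and reads may have been shared or lost among them. Nat8f5, Nat8 and Nat8f6 kept their calls in each of the 10 fits that left out 1 library. Nat8f7 lost its call in 8 of 10 fits (adjusted p up to 0.112).

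Among the carboxylesterases 2 were called, both higher (0.543% of all tested genes were called higher). Ces1d, an esterase of lipids and drugs, read 489.5, 422, 354, 376 and 444 CPM in Control and 835, 948, 512, 731 and 755 in EIC mice (LFC 0.86, SE 0.15, adjusted p = 0.0165). Ces1g read 1.95, 1.84, 0.507, 2.13 and 2.12 CPM in Control and 4.86, 10.5, 3.76, 8.36 and 5.51 in EIC mice (LFC 1.94, SE 0.38, adjusted p = 0.0287), with Control 653 the lowest. Ces1f had an LFC of 0.71 (adjusted p = 0.113). The Ces1 genes are paralogs, which leaves their single values uncertain. Ces1d lost its call without Control 654 (adjusted p = 0.0564). Ces1g lost its call without Control 651, 652, 654 and 655 or EIC 68 and 69 (adjusted p 0.0595 to 0.0736). Of 24 cytochrome P450 genes only Cyp2a5 was called, at 283, 279, 176, 263 and 160.1 CPM in Control and 479, 567, 434, 515 and 423 in EIC mice (LFC 1.06, SE 0.16, adjusted p = 0.0128), while its close paralog Cyp2a4 had an LFC of -0.48 (adjusted p = 0.480). Outside the lists, Gstt2, a glutathione transferase (LFC 0.45, SE 0.083, adjusted p = 0.0265), Oplah, which recycles glutamate for glutathione (LFC 0.44, SE 0.078, adjusted p = 0.0239), and Osgin1, an oxidative stress gene (LFC 0.49, SE 0.080, adjusted p = 0.0108), were called higher. Sesn2, a sestrin that responds to stress and to lack of amino acids, rose from 59.9 ± 8.91 to 94.01 ± 9.85 CPM (LFC 0.65, SE 0.10, adjusted p = 0.0106), the 1 call among 15 ATF4 and serine synthesis genes. Nampt, the rate-limiting enzyme of the NAD salvage pathway, read 208, 219, 207, 217 and 209 CPM in Control and 325, 323, 281, 277 and 323 in EIC mice (LFC 0.53, SE 0.062, adjusted p = 0.00284). Cyp2a5, Osgin1, Sesn2 and Nampt kept their calls in each of the 10 fits that left out 1 library. With 1 library left out, calls were lost for Oplah in 5 of 10 fits (adjusted p up to 0.0698) and Gstt2 in 6 of 10 fits (adjusted p up to 0.0709).

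Amino acid, one-carbon and metal handling held called genes of both directions (0.543% of all tested genes were called higher and 0.506% lower). Ddc, which makes dopamine in the proximal tubule, read 216, 154, 121.0, 145 and 181 CPM in Control and 86.8, 77.3, 89.9, 64.3 and 79.7 in EIC mice (LFC -1.04, SE 0.14, adjusted p = 0.00600), and it was the 1 call among 28 proximal tubule genes (median LFC 0.09). Ethe1, the mitochondrial enzyme that oxidizes sulfide, read 115, 103, 78.2, 88.1 and 112 CPM in Control and 44.5, 50.4, 56.7, 56.9 and 57.4 in EIC mice (LFC -0.90, SE 0.11, adjusted p = 0.00280). Neither gene overlapped between the groups, and both kept their calls in each fit that left out 1 library. Mthfd1l, of the mitochondrial folate pathway, rose from 3.12 ± 0.432 to 6.90 ± 1.10 CPM (LFC 1.14, SE 0.14, adjusted p = 0.00346), while the cytosolic Shmt1 (LFC -0.27, SE 0.053, adjusted p = 0.0420) and Amt, of glycine cleavage (LFC -0.49, SE 0.087, adjusted p = 0.0203), fell. Gpd2 of the glycerol phosphate shuttle (LFC -0.41, SE 0.087, adjusted p = 0.0434) and Car5b, a mitochondrial carbonic anhydrase (LFC -0.54, SE 0.11, adjusted p = 0.0343), fell also. Tfrc, the transferrin receptor, read 58.7, 74.9, 61.8, 69.4 and 61.7 CPM in Control and 41.2, 43.1, 39.5, 26.3 and 42.8 in EIC mice (LFC -0.76, SE 0.13, adjusted p = 0.0139). Slc39a10, a zinc importer, fell from 41.4 ± 3.31 to 25.9 ± 3.16 CPM (LFC -0.67, SE 0.090, adjusted p = 0.00346). Mthfd1l, Tfrc and Slc39a10 kept their calls in each of the 10 fits that left out 1 library. With 1 library left out, calls were lost for Amt in 3 of 10 fits (adjusted p up to 0.0575), Car5b in 7 of 10 fits (adjusted p up to 0.0980), Shmt1 in 8 of 10 fits (adjusted p up to 0.110) and Gpd2 in 8 of 10 fits (adjusted p up to 0.0946).

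The remaining tubular lists gave no call. They were thick ascending limb and distal convoluted tubule (21 genes, median LFC 0.00), principal cells (10, -0.03), intercalated cells (12, 0.14), organic ion transporters (24, 0.13), amino acid transporters (23, -0.06) and phosphate, calcium and vitamin D (14, -0.02). Pck1, the gluconeogenic enzyme of the proximal tubule, read 4819, 3846, 3217, 4097 and 5157 CPM in Control and 5502, 6789, 5966, 7397 and 5917 in EIC mice and missed the threshold (LFC 0.58, SE 0.16, adjusted p = 0.0657), and G6pc had an LFC of 1.02 (adjusted p = 0.0666). Of 17 tubular injury genes none was called. Lcn2 stood at -0.21 (adjusted p = 0.792), Spp1 at -0.067 (adjusted p = 0.854) and Vcam1 at 0.44 (adjusted p = 0.382). Havcr1 had an LFC of -3.15 (adjusted p = 0.309) that rested on Control 651, and it was -0.079 without that mouse. None of 30 genes of cholesterol and fatty acid synthesis was called, but 25 had a negative LFC, with a median of -0.22. Of all tested genes, 48.2% had a positive LFC. Srebf2, the regulator of cholesterol synthesis, had an LFC of -0.34 (adjusted p = 0.0540) and Sqle one of -0.47 (adjusted p = 0.0660), both without overlap. Fasn had an LFC of -1.54 (adjusted p = 0.350), and -0.27 without Control 653, the mouse with high Fabp4.

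Glomerular genes were called in 1 pair, both lower in EIC mice (0.506% of all tested genes were called lower). Col4a3 and Col4a4 encode chains of the collagen IV of the mature glomerular basement membrane and lie head to head on chromosome 1, Col4a4 at chr1:82448423-82586849 and Col4a3 at chr1:82586921-82722059. Col4a3 read 188, 173, 186, 193 and 207 CPM in Control and 148, 122, 123, 99.1 and 143 in EIC mice (LFC -0.58, SE 0.10, adjusted p = 0.0165). Col4a4 read 186, 155, 191, 170.0 and 157 CPM in Control and 122, 124, 125, 102 and 128 in EIC mice (LFC -0.51, SE 0.080, adjusted p = 0.0108). Every EIC mouse was below every Control mouse in both. The 2 transcripts are long, 9967 and 10612 bases, and with the length trend removed their LFCs were -0.50 (adjusted p = 0.0316) and -0.43 (adjusted p = 0.0161). Col4a3 lost its call without Control 654 or 655 (adjusted p 0.0514 to 0.0515), and Col4a4 kept its call in each of the 10 fits that left out 1 library. The other 12 podocyte genes were not called, with Nphs1, which encodes nephrin, at 0.11 (adjusted p = 0.734) and Wt1 at -0.18 (adjusted p = 0.580). None of 14 mesangial and mural genes (median -0.19) and none of 18 endothelial genes (median 0.18) was called. Pdgfrb of mesangial cells stood at -0.22 (adjusted p = 0.770) and Acta2 at -0.17 (adjusted p = 0.843).

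Matrix and growth factor genes gave single calls (0.543% of all tested genes were called higher and 0.506% lower). Thbs4, a matricellular glycoprotein, read 0.935, 1.38, 0.888, 2.27 and 0.313 CPM in Control and 4.47, 5.76, 3.99, 4.36 and 2.41 in EIC mice (LFC 1.84, SE 0.40, adjusted p = 0.0380), the 1 call among 35 matrix genes. Thbs4 lost its call without Control 651, 652, 653 and 655 or EIC 65, 66, 67 and 68 (adjusted p 0.0514 to 0.0882). Vcan had an LFC of -3.85 (adjusted p = 0.357) that rested on Control 653, and without that mouse it did not pass the filter on counts. Mmp15, a membrane-bound metalloproteinase, read 5.91, 4.64, 7.10, 4.74 and 5.41 CPM in Control and 2.28, 1.65, 2.78, 2.09 and 2.46 in EIC mice (LFC -1.30, SE 0.17, adjusted p = 0.00434), the 1 call among 16 proteases and inhibitors. Grem1, a secreted BMP antagonist, read 4.57, 5.51, 2.16, 4.33 and 2.27 CPM in Control and 1.24, 1.82, 1.10, 1.31 and 0.374 in EIC mice (LFC -1.71, SE 0.38, adjusted p = 0.0498), the 1 call among 26 BMP and TGF-beta genes. Grem1 lost its call without Control 651, 652, 654 and 655 or EIC 65, 67, 68 and 69 (adjusted p 0.0565 to 0.115). Its neighbour on chromosome 2, Fmn1, which nucleates actin, fell too, from 41.5 ± 2.40 to 32.9 ± 2.03 CPM (LFC -0.33, SE 0.065, adjusted p = 0.0307). The call of Fmn1 was lost with the length trend removed (LFC -0.24, adjusted p = 0.146) and in the fit of all 20 libraries (adjusted p = 0.0609). Other secreted factors called outside the lists were Bdnf (LFC -0.73, SE 0.16, adjusted p = 0.0498), Pappa, a protease that frees IGF (LFC -0.50, SE 0.090, adjusted p = 0.0259), and Tfpi2, a protease inhibitor whose groups overlapped (LFC -0.55, SE 0.11, adjusted p = 0.0344), all lower, and Wnt5b (LFC 0.55, SE 0.11, adjusted p = 0.0343), higher. Mmp15 kept its call in each of the 10 fits that left out 1 library. The calls lost when 1 library was left out were those of Fmn1 in 5 of 10 fits (adjusted p up to 0.0786), Pappa in 5 of 10 fits (adjusted p up to 0.0765), Wnt5b in 6 of 10 fits (adjusted p up to 0.0931), Tfpi2 in 8 of 10 fits (adjusted p up to 0.0906) and Bdnf in 9 of 10 fits (adjusted p up to 0.119).

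Several genes of adhesion, polarity and the cytoskeleton were called lower, a grouping made after the values were seen. Calls in the cytoskeleton went both ways, and the formin Fmnl1 and the microtubule regulator Stmn1, given below, were called higher. Itgb6, the integrin chain of epithelia that frees TGF-beta, read 82.6, 75.9, 59.5, 69.2 and 76.4 CPM in Control and 48.7, 29.9, 33.7, 33.99 and 38.99 in EIC mice (LFC -0.97, SE 0.13, adjusted p = 0.00391), with no overlap. Pllp, plasmolipin of the apical membrane, read 26.4, 26.2, 23.8, 26.9 and 26.95 CPM in Control and 15.2, 17.2, 17.9, 14.5 and 15.3 in EIC mice (LFC -0.70, SE 0.077, adjusted p = 0.00126). Arvcf, a catenin of adherens junctions (LFC -0.71, SE 0.10, adjusted p = 0.00434), Celsr2, a cadherin of planar polarity (LFC -0.47, SE 0.10, adjusted p = 0.0458), and Ptprk, a phosphatase at cell contacts (LFC -0.47, SE 0.093, adjusted p = 0.0343), were lower. So were Macf1, which links microtubules to actin (LFC -0.47, SE 0.094, adjusted p = 0.0343), Myo9a, an unconventional myosin (LFC -0.38, SE 0.071, adjusted p = 0.0252), Fhod3, a formin (LFC -0.51, SE 0.074, adjusted p = 0.00600), Shank2 (LFC -0.53, SE 0.088, adjusted p = 0.0133) and Dcdc2a, a doublecortin of cilia (LFC -0.92, SE 0.13, adjusted p = 0.00406). Many of these transcripts are long. With the length trend removed, Macf1 had an LFC of -0.37 (adjusted p = 0.0408), Celsr2 one of -0.38 (adjusted p = 0.0544), Ptprk one of -0.38 (adjusted p = 0.0874) and Myo9a one of -0.28 (adjusted p = 0.0463), while Itgb6 stood at -0.92 (adjusted p = 0.00626) and Pllp at -0.77 (adjusted p = 8.57e-04). Itgb6, Pllp, Arvcf, Fhod3, Shank2 and Dcdc2a kept their calls in each of the 10 fits that left out 1 library. With 1 library left out, calls were lost for Myo9a in 4 of 10 fits (adjusted p up to 0.0764), Macf1 in 5 of 10 fits (adjusted p up to 0.0836), Celsr2 in 7 of 10 fits (adjusted p up to 0.104) and Ptprk in 8 of 10 fits (adjusted p up to 0.0931).

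Several of the genes with the smallest p belong to no list. Tspan4, a tetraspanin of migrasomes, read 57.7, 58.6, 52.7, 61.4 and 57.4 CPM in Control and 107, 101, 94.5, 119 and 103 in EIC mice (LFC 0.86, SE 0.068, adjusted p = 1.25e-04), with no overlap. Prnp, the prion protein, read 216, 243, 195, 195 and 192 CPM in Control and 326, 364, 302, 335 and 362 in EIC mice (LFC 0.70, SE 0.079, adjusted p = 0.00200). Ngef, a guanine nucleotide exchange factor, rose from 72.6 ± 3.72 to 102 ± 7.05 CPM (LFC 0.50, SE 0.061, adjusted p = 0.00284). Nkain1, which interacts with the sodium pump, read 7.78, 11.6, 8.62, 12.9 and 10.1 CPM in Control and 30.6, 30.3, 17.9, 24.3 and 33.6 in EIC mice (LFC 1.43, SE 0.18, adjusted p = 0.00391). Fmnl1, a formin, rose from 71.4 ± 6.09 to 103 ± 5.25 CPM (LFC 0.53, SE 0.068, adjusted p = 0.00302), and Tmem252 rose from 73.9 ± 10.7 to 162 ± 33.3 CPM (LFC 1.13, SE 0.14, adjusted p = 0.00346). Gprin3 fell from 9.84 ± 2.22 to 5.48 ± 0.772 CPM (LFC -0.85, SE 0.15, adjusted p = 0.0259), as did Mcmdc2 from 3.57 ± 0.653 to 1.96 ± 0.332 CPM (LFC -0.87, SE 0.17, adjusted p = 0.0464). HN1L, given in the files by an older symbol, fell from 33.7 ± 3.35 to 18.1 ± 2.77 CPM (LFC -0.90, SE 0.11, adjusted p = 0.00200). Rab30, a Golgi GTPase, rose from 15.1 ± 3.05 to 29.3 ± 5.06 CPM (LFC 0.95, SE 0.15, adjusted p = 0.0126) and Smpdl3b, a lipid-modifying phosphodiesterase, from 3.06 ± 0.550 to 6.19 ± 1.15 CPM (LFC 1.01, SE 0.17, adjusted p = 0.0160). Tspan4, Prnp, Ngef, Nkain1, Fmnl1, Tmem252, HN1L and Rab30 kept their calls in each of the 10 fits that left out 1 library. The calls lost when 1 library was left out were those of Smpdl3b in 2 of 10 fits (adjusted p up to 0.0519), Gprin3 in 3 of 10 fits (adjusted p up to 0.0777) and Mcmdc2 in 9 of 10 fits (adjusted p up to 0.107).

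The cell cycle and vasoactive lists gave 1 call, higher in EIC mice (0.543% of all tested genes were called higher). Ccne1, the cyclin of entry into DNA synthesis, read 0.385, 0.384, 0.380, 0.206 and 0.313 CPM in Control and 0.794, 0.705, 1.33, 0.956 and 1.18 in EIC mice (LFC 1.51, SE 0.26, adjusted p = 0.0311), the 1 call among 23 cell cycle genes (median -0.04). At these levels few reads carry the values of Ccne1, above all in Control mice. Ccne1 lost its call without Control 651, 652, 654 and 655 or EIC 67, 68 and 69 (adjusted p 0.0598 to 0.0816). Mki67, which encodes Ki-67, had an LFC of 0.52 (adjusted p = 0.607) and Top2a one of 0.75 (adjusted p = 0.340), both at about 1 CPM. Without EIC 67 these LFCs were -0.0027 and 0.43. Tk1, thymidine kinase, was called higher outside the list (LFC 0.52, SE 0.092, adjusted p = 0.0265), as was Stmn1, a microtubule regulator (LFC 0.42, SE 0.082, adjusted p = 0.0317). With 1 library left out, calls were lost for Tk1 in 6 of 10 fits (adjusted p up to 0.0764) and Stmn1 in 6 of 10 fits (adjusted p up to 0.0846). None of 14 renin-angiotensin and endothelin genes was called (median 0.06). Ren1 had an LFC of 0.48 (adjusted p = 0.561), Ednrb one of 0.49 (adjusted p = 0.183) and Agtr1a one of -0.26 (adjusted p = 0.353). Ddc apart, which is counted with the proximal tubule, none of 22 prostaglandin, nitric oxide, natriuretic peptide and dopamine genes, 33 MAP kinases and phosphatases, 18 cytosolic heat shock proteins and 17 ER chaperones was called. Hspa8 had an LFC of 0.47 (adjusted p = 0.0648) and Herpud1 one of 0.61 (adjusted p = 0.0516).

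Over the 29 lists in which edgeR called no gene, 90 of 449 tested genes stood at an unadjusted p under 0.05 (14.6% of all tested genes did). DESeq2, which called 505 of all 13626 tested genes, called 28 of the 449, in 13 of these lists. Among them were 5 of 30 genes of cholesterol and fatty acid synthesis, all lower, and 3 of 16 leukocyte integrin and actin genes and 2 of 8 MHC class II genes, all higher.

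**Figure D5:**
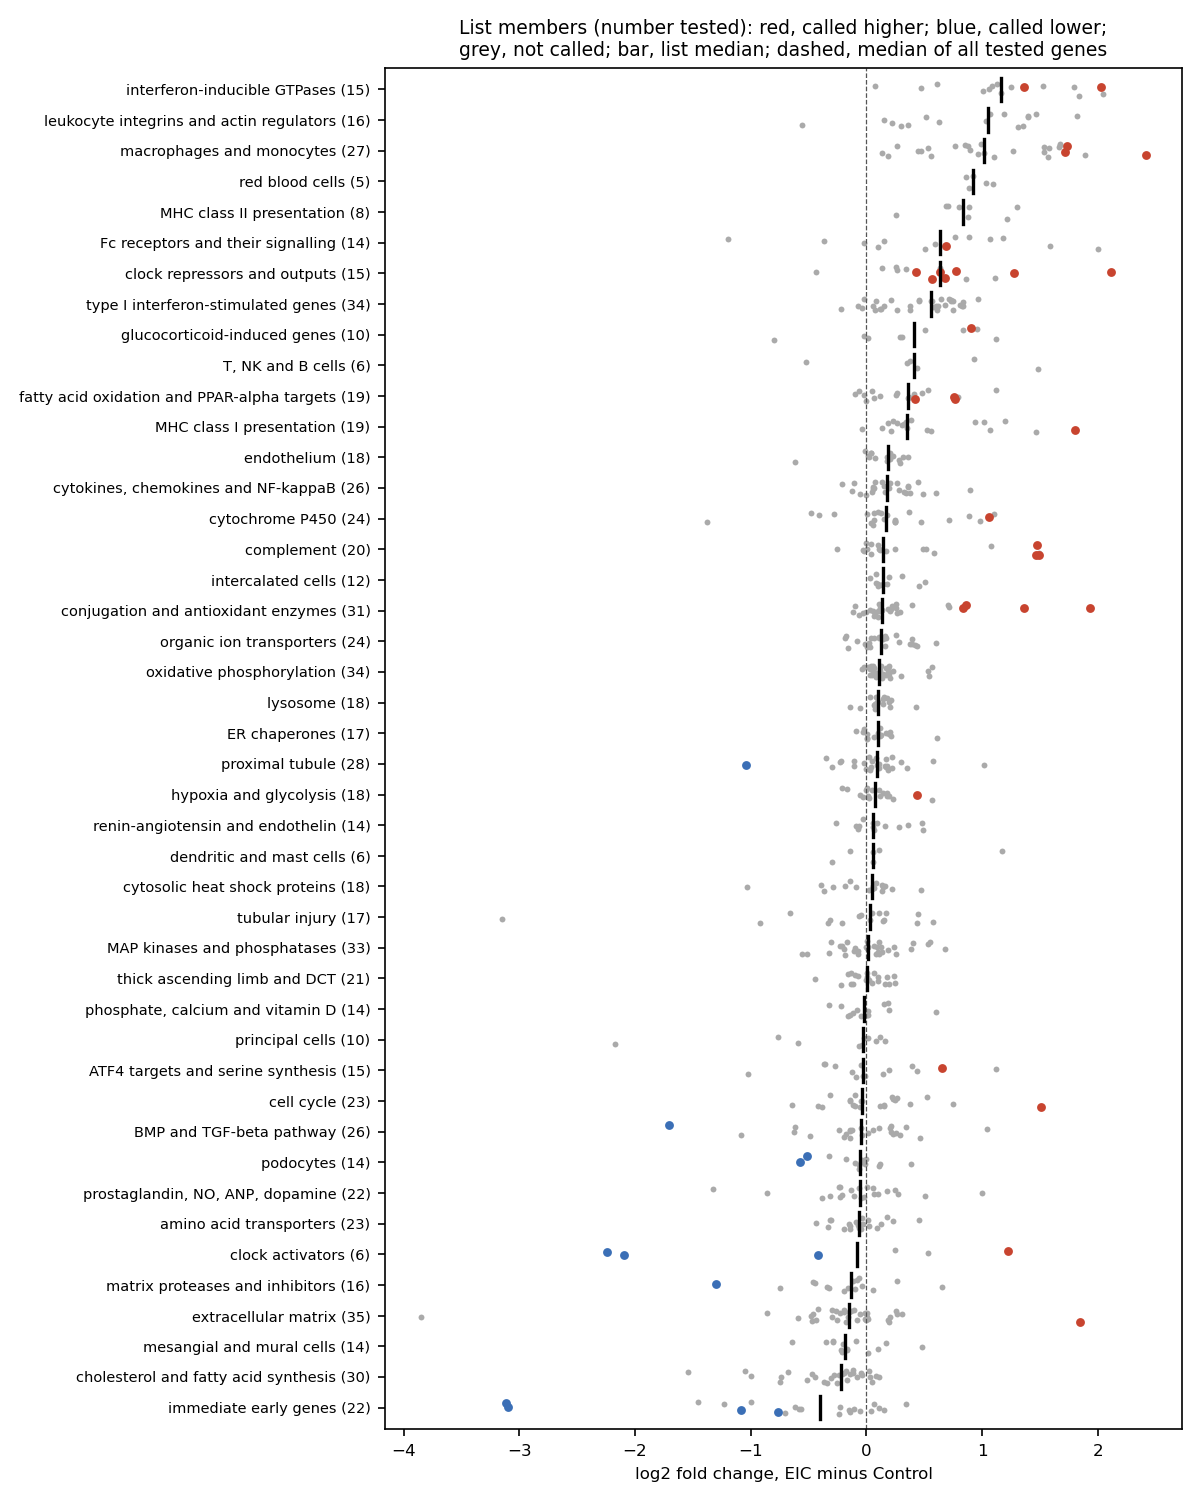
LFC of EIC over Control (x axis) of every tested member of the lists with at least 5 tested members, 1 point per gene, red where called higher, blue where called lower and grey otherwise, with a black bar at each list's median. Interferon-inducible GTPases (median 1.16), leukocyte integrins (1.05) and macrophages (1.01) stand at the top with 2, 0 and 3 calls, and immediate early genes (-0.40) at the bottom with 4.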

How the data were processed

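RNA of whole kidney was sequenced from 20 mice, and the 5 Control and 5 EIC libraries were grouped by the labels. The authors trimmed reads with Trimmomatic (version 0.36), aligned them to GRCm38 with STAR (version 2.5.2b) and made the gene counts with featureCounts (Subread 1.5.2). The annotation and the settings for strand and for reads that match several genes are not given in the sources read for this work. The deposited values are raw counts, not normalized, for 15780 genes. All of them have at least 1 count in EIC 65, so a gene with no count in that mouse is not listed. Of the names, 15403 matched a gene symbol, and 21 look like dates.

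Genes that reached 10 counts in 5 or more of the 10 libraries were scaled by TMM and tested with edgeR (version 4.0.16, R 4.3.3, quasi-likelihood, robust), with Benjamini-Hochberg adjustment over 13626 genes. The biological coefficient of variation was 16.6%. SEs came from limma (version 3.58.1) on log2 CPM (prior count 2). Single library measures were compared by exact permutation tests in scipy (version 1.17.1), whose smallest two-sided p for 5 against 5 mice is 0.00794. Alternatives included DESeq2 (version 1.42.0), limma-voom, other scalings and filters, thinning, and leaving out libraries. On simulated data (13508 genes, 200 changed) the test found 23 of 50 genes changed by 0.5 on the log2 scale, 35 of 50 changed by 1, 43 of 50 changed by 1.5 and 44 of 50 changed by 2, with 3 false calls among 148. The simulated counts were drawn for each gene on its own, with no length trend and no mouse that stands apart. The share of false calls may therefore not hold for the real data. The depth of each library is its total count.

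The 49 gene lists (987 genes, 932 listed, 846 tested) and the comparison itself were chosen with earlier results of these data known, so lists are described by counts and medians with no test of their own. Genes were named by a rule: the 15 called genes with the largest LFC in each direction at a mean of at least 1 CPM, the 15 with the smallest p, called members of each list and its 4 members with the smallest p, members of short lists, and genes the study names. In the text, 61 of the 160 genes named lie outside this rule and were chosen after their values were seen, and some genes that the rule or a count covers are not reported here by name. Gene positions and exon lengths come from GENCODE M21 (GRCm38) and promoter sequences from RefSeq (GRCm38.p6).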

Additional observations from a re-analysis of the deposited data

Results flagged for a closer look

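Within each group of 5 mice, a value was noted where the gap between the highest or lowest mouse and its nearest neighbour, divided by the range of the group, passed Dixon's critical value of 0.71. Chance gives about 1 such value in 20 groups, and 334 groups of values were examined (160 genes and 7 library measures in each of the 2 groups), with 32 values noted. EIC 67 held 10 of them and Control 653 held 8.

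In EIC 67, Adgre1 (12 CPM), Clec4a2 (2.03), Itgb2 (11.1), Myo1g (3.99), Psmb9 (15.2) and Tgtp1 (15.6), genes of myeloid cells and of the interferon response, stood above the other EIC mice. So did the proliferation genes Mki67 (2.78 CPM) and Top2a (2.14), while Nat8f2 (17.9 CPM) and Pxmp4 (130.0 CPM) stood below. In Control 653, Fabp4 (233 CPM), Fasn (645), Vcan (43.2), Acta2 (46.2) and Nfil3 (9) were above the other Control mice. Ces1g (0.507 CPM), Pllp (23.8) and the share of counts in the 10 most abundant genes (13.2%) were below them.

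Control 655 was high in the immediate early genes Ier2 (33.0 CPM) and Junb (53.0) and low in Per2 (11.4) and Nlrc5 (0.0783). In EIC 68, Acta2 (42.8 CPM) and Nr4a1 (9.20) were high and Col4a4 (102 CPM) and Tfrc (26.3) low. In EIC 66, Sesn2 (111 CPM) was high and Dcdc2a (7.76) low. Control 651 was high in Havcr1 (45.3 CPM) and Gprin3 (13.7), Control 652 in Spp1 (1375 CPM) and EIC 65 in Npas2 (0.745 CPM).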

How the results depend on the processing

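Against 143 genes called (74 higher, 69 lower), DESeq2 called 505 (290 higher, 215 lower), with or without independent filtering, and the fit of all 20 libraries called 416 (225 higher, 191 lower). Without a scaling factor 273 were called, 78 higher and 195 lower. Without the Control libraries of over 20000000 counts 52 were called, 32 higher and 20 lower, 47 of them among the 143. Without Control 651 and EIC 68, the mice of the steepest length trend, 61 were called (34 higher, 27 lower, 56 shared), an alternative chosen after the data were seen, as was the removal of the length trend. Leaving out 1 library gave 71 to 177 called, 38 to 97 higher and 29 to 93 lower. RLE scaling, other filters, limma-voom, no robust option, thinning and removal of the length trend gave 130 to 145. None of the 90 called genes named changed the sign of its LFC under any alternative run. The LFC of 9 named genes that were not called and the medians of 17 lists did change sign under at least 1 alternative, 14 of these medians lying within 0.2 of 0. The others were fat cells (-1.16, and 0.0058 without Control 653), urothelium (-0.97, and 0.53 without Control 653), each of 2 tested genes, and T, NK and B cells (0.41, and -0.52 at the lowest), of 6. In the fit of all 20 libraries Btg2 (adjusted p = 0.0522), Fmn1 (0.0609) and Tk1 (0.0969) lost their calls. Over the 160 named genes, the alternatives other than those 2 kept the side of the threshold for 2809 values, lost the call of 384 and gained one for 120. No paired analysis was possible because mouse numbers differ between the groups. Depth limits genes near 1 CPM, where a total of 12662345 in the smallest library gives few reads per gene, and 1991 genes stood at an unadjusted p under 0.05. The low values of neutrophil and lymphocyte markers cannot show whether such cells were present.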
